A study of Mus musculus with 6 samples.

Results

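Aminoacyl-tRNA synthetases were followed in primary mouse microglia, the brain's own macrophages, as a set of 35 listed genes out of the 24411 genes counted. The set holds 20 cytosolic enzymes and 15 mitochondrial ones, whose symbols end in 2, and was chosen by gene symbol without reference to how the genes changed. Lars2, the mitochondrial leucine enzyme, was left out because its row collects rRNA-like reads. All 35 genes had reads in the tables. A filter on low counts passed all 20 cytosolic genes and 11 of the 15 mitochondrial genes, and the other 4 (Aars2, Pars2, Sars2 and Vars2) are given as read counts without a test. The cells came from whole brains of 3-day-old ICR mice, an outbred stock with no engineered allele named in the labels. Tissue from 12 animals was pooled, grown as mixed glia in flasks, and microglia were shaken loose and replated, more than 92% of them CD11b positive. Every library comes from cells given FTY720 (the drug fingolimod, which resembles sphingosine and, after phosphorylation in cells, binds receptors for sphingosine 1-phosphate) at 1 µM. The FTY720 group of 3 libraries had this drug alone for 4 h, and the FTY720 + LPS group of 3 libraries also received lipopolysaccharide at 10 ng/ml for 4 h. LPS is a bacterial outer-membrane component that is sensed through Toll-like receptor 4. The comparison therefore shows what LPS changed in the presence of FTY720, and cells without FTY720 were not analysed here. The replicates were independent RNA samples per the labels. The labels do not say whether separate animal pools or cultures lie behind them, so p-values measure the spread between RNA samples only.

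Each synthetase attaches 1 amino acid to its matching tRNAs, and the charged tRNA carries it to the ribosome. Enzymes of class I and class II have unrelated catalytic folds and join the amino acid to different hydroxyl groups of the tRNA's last ribose. In animal cells several cytosolic synthetases are held together with the scaffold proteins Aimp1, Aimp2 and Eef1e1 in the multi-tRNA synthetase complex, whereas the mitochondrial enzymes are imported one by one and serve the few proteins made inside the organelle. When amino acids run short, uncharged tRNA activates the kinase Gcn2, translation of the transcription factor ATF4 rises, and ATF4 induces amino acid transporters, biosynthetic enzymes and many cytosolic synthetase genes. Macrophage-lineage cells switch on a large transcriptional programme within hours of LPS, and interferon-inducible genes are part of it.

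Gene reads numbered 2431775 to 3454647 per library, and the 35 synthetases together took 1797 to 3900 of them. Rows that collect rRNA-like reads (Rn45s, Lars2 and Mir6236) held 28.8% to 59.0% of gene reads, and 98.4% to 98.9% of gene reads lay on the sense strand. The first principal component (78.2% of the variance) separated the groups, and FTY720 replicate 3 stood apart on the second (7.37%). Without that library 5 cytosolic synthetases were called higher and 4 lower, and 0 mitochondrial synthetases were called higher and 5 lower, against 4, 5, 0 and 5 with it. Microglial markers summed to 2453 to 2651 CPM (reads scaled to a common library size with TMM factors) with FTY720 and to 3875 to 4528 CPM with LPS added. Of the 12 microglial markers 10 could be tested and 9 of these were called higher (1 with total gene reads alone as library size). Tmem119 and Sall1, which mark homeostatic microglia, were too low to be tested. With the expression trend described below removed, 5 microglial markers were called higher and 1 lower. Aif1 passed the low-count filter through the FTY720 + LPS libraries alone. The tested markers had a median mean log2 CPM of 8.14. Between 8 and 9, 82.6% of all tested genes were called higher. The shares of all tested genes, for this and the next marker counts, were 23.3% higher and 22.7% lower. Markers of oligodendrocyte-lineage cells summed to 270 to 295 CPM with FTY720 and to 143 to 164 CPM with LPS added, and 5 of 6 tested were lower. Among these 5, Olig2 and Sox10 had 0 FTY720 + LPS libraries past the level of the low-count filter. They passed it through the FTY720 libraries, where they were high, so the count is a description. Neuronal markers summed to 189 to 253 and to 107 to 118 CPM, with 3 of 4 tested lower. Astrocyte markers summed to 89.7 to 105 and to 104 to 142 CPM, fibroblast and mural markers to 87.7 to 169 and to 137 to 199 CPM, and monocyte and border macrophage markers to 167 to 182 and to 313 to 344 CPM. Ly6c2, a monocyte marker, was the only marker with 0 reads in every library. Synthetases are made in all these cell types, so in these bulk samples fewer cells of a type and less RNA per cell cannot be told apart. The part of the other cell types in the changes below was not tested.

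Promoter windows of 300 bases (250 before to 50 after the annotated start) were sought in RefSeq on GRCm38.p6. None was found for Cars, Hars, Lars, Nars, Rars, Vars, Wars, Hars2 and Pars2. Windows were found for the other 26 of the 35 genes, 13 in each compartment. They were searched on both strands for TGATGNAA (the C/EBP-ATF response element, CARE, bound by ATF4), for CACGTG (the E-box bound by MYC, USF and TFE3 family factors) and for a pair of GAAA repeats with any 2 bases between them (the interferon-stimulated response element, ISRE). A CARE match lay in 5 of 13 cytosolic windows and in 0 of 13 mitochondrial genes' windows, against 3.97% of 32851 windows of the same length. E-box matches lay in 4 cytosolic windows (Aars, Farsb, Iars and Tars) and 1 mitochondrial window (Ears2), against 7.15% of windows. The only ISRE match was that of Qars, against 3.44% of windows. The windows below are those of the 5 cytosolic genes with a CARE match, of Qars, the cytosolic synthetase with the ISRE match, and of Fars2, the synthetase with the largest change, whose window held none of the motifs. Each is written 5′ to 3′ on the gene's own strand, and capitals mark matches to any of the motifs.
Aars (chr8:111033592-111033891, plus strand): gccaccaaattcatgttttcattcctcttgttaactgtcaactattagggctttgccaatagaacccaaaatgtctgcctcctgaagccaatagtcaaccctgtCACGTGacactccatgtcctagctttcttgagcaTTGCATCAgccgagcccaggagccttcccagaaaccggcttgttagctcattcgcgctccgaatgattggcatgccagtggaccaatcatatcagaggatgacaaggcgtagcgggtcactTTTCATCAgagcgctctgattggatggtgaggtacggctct
Gars (chr6:55037751-55038050, plus strand): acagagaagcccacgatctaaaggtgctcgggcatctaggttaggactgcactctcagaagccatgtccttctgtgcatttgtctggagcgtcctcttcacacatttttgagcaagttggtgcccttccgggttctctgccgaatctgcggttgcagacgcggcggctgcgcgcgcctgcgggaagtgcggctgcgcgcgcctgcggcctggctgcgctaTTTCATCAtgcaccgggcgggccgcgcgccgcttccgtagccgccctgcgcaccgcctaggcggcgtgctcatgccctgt
Iars (chr13:49681880-49682179, plus strand): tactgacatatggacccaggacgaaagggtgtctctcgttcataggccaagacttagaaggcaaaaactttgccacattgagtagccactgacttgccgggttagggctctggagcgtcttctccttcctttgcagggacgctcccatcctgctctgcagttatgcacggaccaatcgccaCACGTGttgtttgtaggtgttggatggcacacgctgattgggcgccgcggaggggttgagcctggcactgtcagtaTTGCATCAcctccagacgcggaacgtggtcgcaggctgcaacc
Tars (chr15:11399609-11399908, minus strand): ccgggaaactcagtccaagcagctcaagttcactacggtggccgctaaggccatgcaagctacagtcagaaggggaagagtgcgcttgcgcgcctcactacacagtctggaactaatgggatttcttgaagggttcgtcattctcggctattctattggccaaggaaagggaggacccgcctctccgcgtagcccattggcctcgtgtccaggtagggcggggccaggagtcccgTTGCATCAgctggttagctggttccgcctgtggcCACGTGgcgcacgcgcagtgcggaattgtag
Yars (chr4:129189653-129189952, plus strand): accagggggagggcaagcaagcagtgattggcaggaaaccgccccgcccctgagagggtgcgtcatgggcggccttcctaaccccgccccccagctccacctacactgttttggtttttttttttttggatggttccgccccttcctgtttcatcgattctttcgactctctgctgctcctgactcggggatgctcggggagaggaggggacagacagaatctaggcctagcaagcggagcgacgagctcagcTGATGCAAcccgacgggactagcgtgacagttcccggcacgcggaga
Qars (chr9:108507755-108508054, plus strand): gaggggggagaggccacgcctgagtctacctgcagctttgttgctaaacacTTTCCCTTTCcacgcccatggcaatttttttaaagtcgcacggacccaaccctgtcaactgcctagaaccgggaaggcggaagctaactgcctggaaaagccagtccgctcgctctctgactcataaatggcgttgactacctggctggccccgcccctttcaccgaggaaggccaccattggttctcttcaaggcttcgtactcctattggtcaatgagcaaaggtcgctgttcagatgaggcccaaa
Fars2 (chr13:36117393-36117692, plus strand): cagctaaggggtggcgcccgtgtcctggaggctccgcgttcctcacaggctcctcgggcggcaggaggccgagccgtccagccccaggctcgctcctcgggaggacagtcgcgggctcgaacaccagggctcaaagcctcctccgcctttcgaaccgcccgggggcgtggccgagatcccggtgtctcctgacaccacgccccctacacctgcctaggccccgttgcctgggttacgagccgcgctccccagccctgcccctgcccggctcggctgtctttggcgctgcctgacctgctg
The CARE match began 112 bases before and again 9 bases after the start in Aars, 30 bases before it in Gars, 7 bases after it in Iars, 15 bases before it in Tars and 3 bases after it in Yars. In the Aars, Iars and Tars windows an E-box lay within 80 bases of the CARE match. In Qars the ISRE match began 199 bases before the start. All these distances are from RefSeq starts, which can differ from those of GENCODE M21, the source of the gene positions below. GENCODE starts Aars at 111033144 and Qars at 108507706, so both windows lie wholly inside those genes as GENCODE places them. With its Fars2 start at 36117412, most of the Fars2 window also lies inside the gene. These matches describe letters in the windows and say nothing of binding in these cells.

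With LPS added, some cytosolic synthetases rose and others fell, while each mitochondrial synthetase that passed the test fell (with the expression trend described below removed, Mars2 was called higher). Asparaginyl-tRNA synthetase (Nars) rose 1.77-fold, the largest rise in the set, and Rars, Cars and Qars rose by smaller factors. Vars, Farsb, Mars, Dars and Sars fell. Among mitochondrial enzymes Fars2, Ears2, Tars2, Hars2 and Iars2 fell, and the fall of Fars2, 2.49-fold, was the largest change in the set. In all, edgeR's quasi-likelihood test with Benjamini-Hochberg adjustment called 4 of the 31 tested synthetases higher and 10 lower at an adjusted p under 0.05, against 23.3% of all 10124 tested genes higher and 22.7% lower (46% in either direction). Of the cytosolic enzymes 4 of 20 were called higher and 5 lower. The median log2 fold change of these 20 was 0.24, where that of all tested genes was -0.04, and with total gene reads alone as library size it was -0.06, where that of all genes was -0.35. Of the 6828 tested genes in the same range of expression 21.7% were called higher and 22.8% lower, so the cytosolic counts lay near the background in both directions. Of the mitochondrial enzymes 0 of 11 tested were called higher and 5 lower, with a median of -0.52. Among the 3873 tested genes in their expression range 10.5% were called higher and 27.3% lower, and the median was -0.31. Ears2, among the 5 called lower, passed the low-count filter through the FTY720 libraries alone, so the mitochondrial count is a description. At an unadjusted p under 0.05, and by DESeq2, the number of mitochondrial synthetases higher was also 0. No synthetase was called higher by 2-fold or more, as 8.49% of tested genes were. Single libraries mattered to these counts: without FTY720 + LPS replicate 2, 1 cytosolic synthetase was higher and 1 lower. The cytosolic number lower was 2 without FTY720 replicate 1 or FTY720 + LPS replicate 3 and 3 without FTY720 replicate 2 or FTY720 + LPS replicate 1, and the mitochondrial number lower was 3 without FTY720 + LPS replicate 1.

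**Figure D1:**
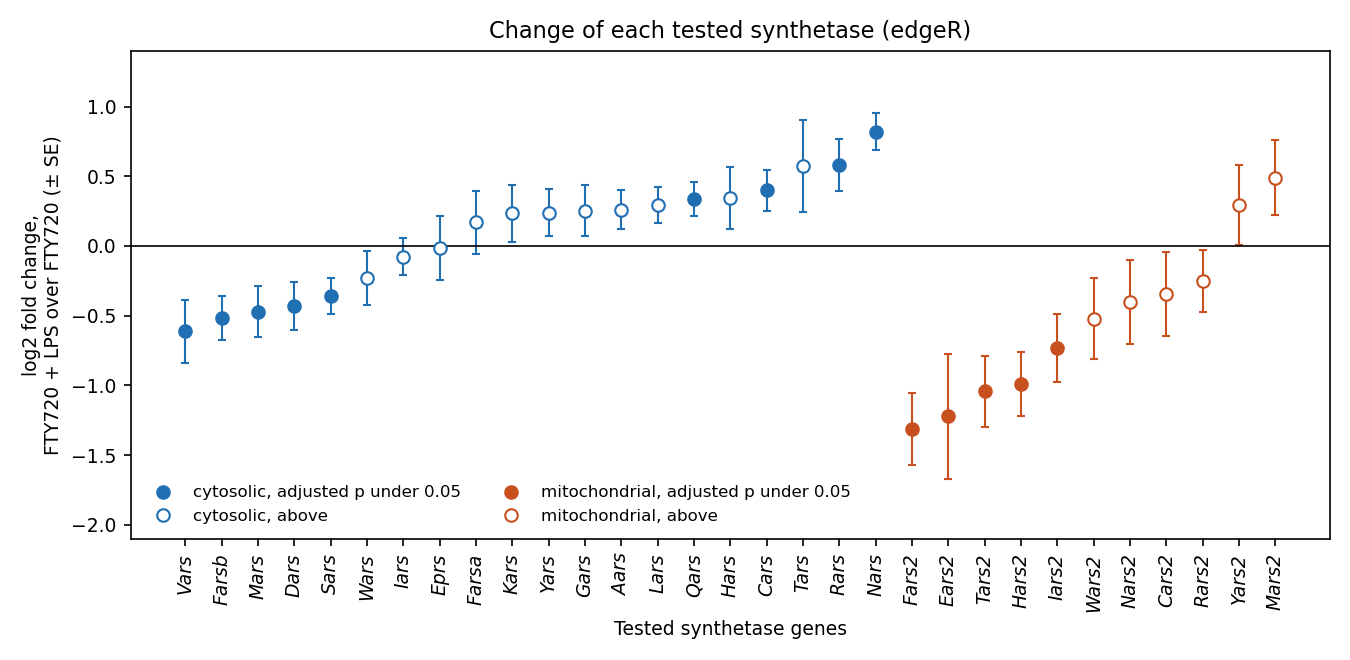
Log2 fold change of each of the 31 tested synthetases (FTY720 + LPS over FTY720, edgeR) with its standard error, cytosolic genes left and mitochondrial genes right, filled where the adjusted p is under 0.05. Filled cytosolic points lie on both sides of 0, from Vars at -0.61 to Nars at 0.82, and the 5 filled mitochondrial points all lie below 0, from Fars2 at -1.32 to Iars2 at -0.73.

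Nars stood at 46.7, 46.0 and 41.7 CPM in the FTY720 libraries and at 79.2, 77.5 and 80.1 CPM with LPS added. The groups lay far apart relative to the scatter within each. The log2 fold change was 0.82 ± 0.13 (SE), with an adjusted p of 2.2e-05. Nars kept its call in 14 of 15 alternative analyses, and lost it when total gene reads alone set the library size (0.51, adjusted p = 0.16). In GENCODE M21 on GRCm38 the gene runs along chromosome 18 from 64499647 to 64516652 on the minus strand. Rars, the arginine enzyme of the multisynthetase complex (chromosome 11, 35808381 to 35834506, minus strand), stood at 19.8, 25.2 and 18.5 CPM and then at 32.3, 35.3 and 26.2 CPM. Its lowest library with LPS was only just above its highest without. The log2 fold change of Rars was 0.58 ± 0.18, with an adjusted p of 0.0133.

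Cars, the cysteine enzyme (chromosome 7, 143557230 to 143600090, minus strand), read 47.0, 37.0 and 46.2 CPM with FTY720 and 52.2, 63.9 and 56.4 CPM with LPS added. Qars, the glutamine enzyme of the complex (chromosome 9, 108507706 to 108515941, plus strand), read 77.3, 80.3 and 91.7 CPM and then 103, 103 and 109.8 CPM. Neither gene's groups overlapped, but both changes were small. The log2 fold changes were 0.40 ± 0.15 for Cars (adjusted p = 0.0295) and 0.34 ± 0.12 for Qars (adjusted p = 0.0273). Each lost its call in 7 of 15 alternatives, where the lowest values were 0.06 for Cars and 0.00 for Qars with total gene reads alone. The number of cytosolic synthetases called higher was 1 with upper-quartile factors, where Nars alone was called, 0 with total gene reads alone, and 1 without FTY720 + LPS replicate 2.

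The falls among cytosolic enzymes were of similar size to those rises. Farsb, the beta subunit of the phenylalanine enzyme, which works as a heterotetramer with Farsa (Farsb lies on chromosome 1, 78417975 to 78488897, minus strand), read 38.3, 37.3 and 45.7 CPM with FTY720 and 29.3, 26.8 and 29.2 CPM with LPS added. Its log2 fold change was -0.52 ± 0.16, with an adjusted p of 0.0112. The groups did not overlap, and the call was lost in 1 of 15 alternatives, without FTY720 + LPS replicate 2 (adjusted p = 0.067). Farsa, the alpha subunit, read 12.4, 14.8 and 13.3 CPM and then 18.8, 14.1 and 12.1 CPM, and was not called (0.17 ± 0.22, adjusted p = 0.558). The ratio of Farsa to Farsb reads was 0.325, 0.396 and 0.290 with FTY720 and 0.641, 0.524 and 0.414 with LPS added. Each library with LPS thus had a higher ratio of the alpha to the beta subunit's transcript than any library without it. That the 2 changes differ was not tested, and 3 against 3 libraries cannot give an exact permutation p below 0.1.

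Sars, the serine enzyme, which also charges the selenocysteine tRNA with serine, read 91.4, 104 and 109.9 CPM with FTY720 and 86.7, 81.3 and 69.5 CPM with LPS added (chromosome 3, 108424865 to 108445209, minus strand). Vars, the valine enzyme (chromosome 17, 35000987 to 35016322, plus strand), read 18.1, 15.1 and 16.8 CPM and then 9.39, 10.2 and 13.6 CPM. Both genes had separate groups, and Vars had the larger change. The log2 fold changes were -0.36 ± 0.13 for Sars (adjusted p = 0.0253) and -0.61 ± 0.23 for Vars (adjusted p = 0.0314). Sars lost its call in 4 and Vars in 5 of 15 alternatives, DESeq2 among them for both.

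Mars, the methionine enzyme that also charges the initiator tRNA, and Dars, the aspartate enzyme, belong to the multisynthetase complex. Mars read 30.2, 31.2 and 25.6 CPM with FTY720 and 17.3, 23.8 and 21.7 CPM with LPS added (-0.47 ± 0.18, adjusted p = 0.041). Dars read 43.7, 38.6 and 53.3 CPM and then 41.3, 31.9 and 27.2 CPM (-0.43 ± 0.17, adjusted p = 0.0455). The Mars groups lay apart, whereas FTY720 + LPS replicate 1 of Dars lay above FTY720 replicate 2. Both sat close to the threshold, and lost their calls in 8 and 7 of 15 alternatives. At the Mars locus (chromosome 10, 127296221 to 127311786, minus strand) 30.9% of the reads on both strands together lay on the opposite strand, where Ddit3 overlaps it by 68 exonic bases. Dars lies on chromosome 1 from 128363707 to 128417368, minus strand.

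**Figure D2:**
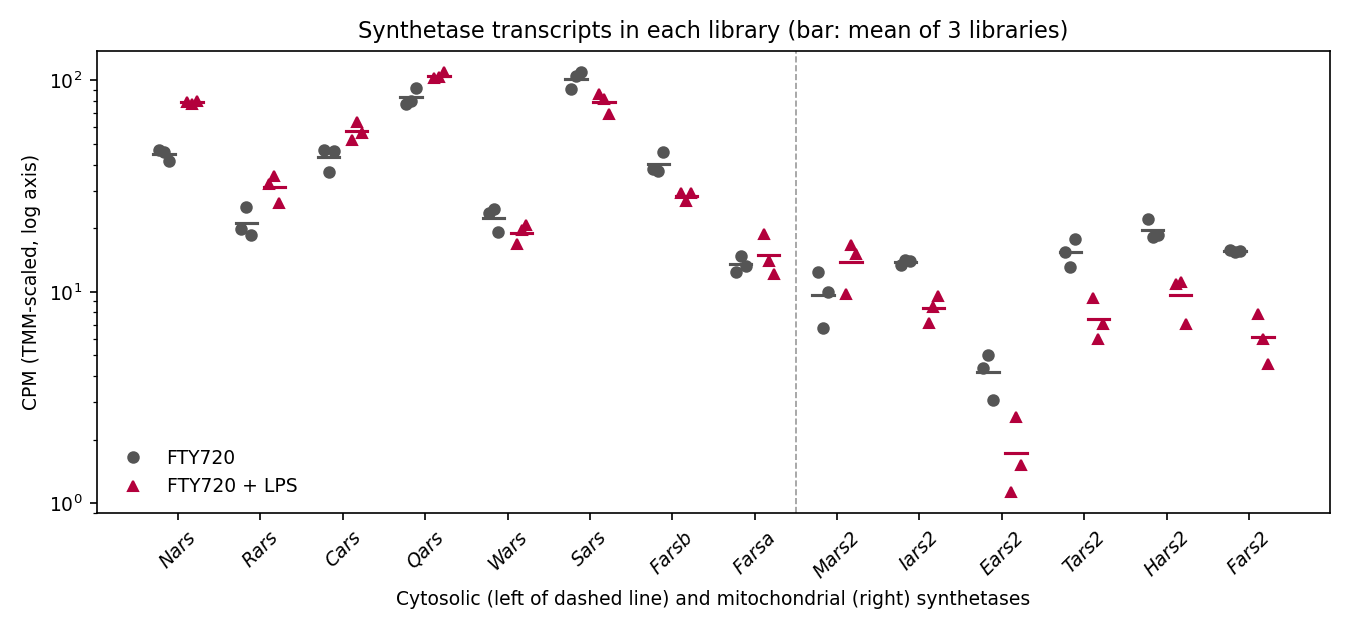
TMM-scaled CPM (log axis) of 14 synthetases in each of the 3 FTY720 libraries (circles) and the 3 FTY720 + LPS libraries (triangles), with the mean of each group as a bar, cytosolic genes left of the dashed line. Nars rises with no overlap, Farsb falls while Farsa overlaps, and Fars2, Hars2 and Tars2 each fall with no overlap.

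The other 11 cytosolic enzymes were not called, 8 with a positive and 3 with a negative estimate. Wars, the tryptophan enzyme, is known as an interferon-inducible synthetase in human cells. It read 23.5, 24.5 and 19.2 CPM with FTY720 and 16.9, 19.6 and 20.7 CPM with LPS added. The groups overlapped, the log2 fold change was -0.23 ± 0.19 (adjusted p = 0.339), and its 95% interval ran from 0.646-fold to 1.12-fold. Meanwhile all 13 tested genes of an interferon-inducible list rose, with a median log2 fold change of 5.03. Of all tested genes 23.3% were called higher. In the list 6 genes, Isg15 included, had 0 FTY720 libraries past the level of the low-count filter. Rsad2, Gbp5 and Irf7 had 1, 1 and 2. All of these passed it through the FTY720 + LPS libraries, where they were high, so the count and median are descriptions. Rsad2, an antiviral radical SAM enzyme, rose by 8.54 ± 0.19, and Isg15, a ubiquitin-like modifier, by 8.17 ± 0.18 on the log2 scale. Lars, the leucine enzyme, which also takes part in leucine sensing by mTORC1, came nearest to the threshold from the other side. It read 79.3, 67.2 and 90.04 CPM and then 94.2, 98.8 and 97.7 CPM, groups that did not overlap (0.29 ± 0.13, adjusted p = 0.0698).

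None of the 5 genes with a CARE match in the windows printed above was called. Of the synthetases called higher only Qars had a window. Nars, Rars and Cars had none and were not searched, so matches cannot be set against these calls. Aars, the alanine enzyme with a pair of matches, read 71.9, 67.5 and 57.6 CPM with FTY720 and 84.8, 83.9 and 65.0 CPM with LPS added (0.26 ± 0.14, adjusted p = 0.135). Tars, the threonine enzyme, was the least abundant cytosolic member and scattered widely with FTY720, at 5.71, 11.1 and 3.79 CPM, against 9.76, 9.37 and 10.6 CPM with LPS added (0.57 ± 0.33, adjusted p = 0.159). Gars, the glycine enzyme, changed by 0.25 ± 0.18, Yars, the tyrosine enzyme, by 0.24 ± 0.17 and Iars, the isoleucine enzyme, by -0.08 ± 0.14 on the log2 scale, with adjusted p-values of 0.266, 0.261 and 0.667. The 2 groups overlapped for each of these 5 genes. Tars was called higher when the trend of fold change on expression was removed and when FTY720 replicate 2 was left out, and Aars when FTY720 + LPS replicate 3 was left out. Eprs, the fused glutamate and proline enzyme, Hars, the histidine enzyme, and Kars, the lysine enzyme, had estimates of -0.01 ± 0.23, 0.34 ± 0.22 and 0.23 ± 0.21. Gars and Kars supply both the cytosol and the mitochondria from 1 gene.

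Grouping by structure showed calls in both directions in each group. Of tested genes in the expression range of the cytosolic synthetases 21.7% were called higher and 22.8% lower. Of the 8 members of the multisynthetase complex 2 rose (Qars and Rars) and 2 fell (Dars and Mars), with a median of 0.11. Of the 12 free enzymes 2 rose (Nars and Cars) and 3 fell (Farsb, Sars and Vars), with a median of 0.25. Of the 3 scaffolds 0 were called by edgeR, 0 had an unadjusted p under 0.05 and 0 were called by DESeq2. Their log2 fold changes were -0.07 ± 0.22 for Aimp1, 0.33 ± 0.30 for Aimp2 and 0.21 ± 0.22 for Eef1e1. Among 9 cytosolic class I enzymes 3 rose and 2 fell, and among 10 of class II 1 rose and 3 fell, where Eprs holds a domain of each class and is in neither count.

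The mitochondrial enzymes called lower fell by larger factors. Their standard errors were 0.23 to 0.45 on the log2 scale, against 0.12 to 0.23 for the called cytosolic enzymes. A mitochondrial fall thus had to be larger to be called, and the difference in size was not tested. Fars2, the phenylalanine enzyme, is a single chain, unlike its cytosolic counterpart. It read 15.8, 15.5 and 15.6 CPM with FTY720 and 7.88, 5.96 and 4.53 CPM with LPS added. The FTY720 libraries were nearly equal, and each library with LPS was far below them. The log2 fold change was -1.32 ± 0.26, with an adjusted p of 0.000244. The gene spans 608869 bases of chromosome 13 (36117412 to 36726280, plus strand), of which 2347 are exonic. Its start lies 114 bases from that of Lyrm4, on the opposite strand.

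Hars2, the histidine enzyme, read 22.2, 18.1 and 18.5 CPM with FTY720 and 10.9, 11.1 and 7.05 CPM with LPS added (-0.99 ± 0.23, adjusted p = 0.00124). Its neighbour Hars, the cytosolic histidine enzyme, read 16.8, 15.5 and 13.5 CPM and then 20.3, 13.6 and 24.2 CPM, and was not called (adjusted p = 0.212). The pair overlaps at its 5′ ends on opposite strands of chromosome 18, with Hars on the minus strand from 36766528 to 36783205 and Hars2 on the plus strand from 36783008 to 36792562. Their starts lie 197 bases apart and their exons overlap by 195 bases. Hars2 had 0 reads on the opposite strand in all 6 libraries. Fars2 and Hars2 were the only members of the set that kept their calls in each of the 15 alternatives.

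Tars2, the threonine enzyme (chromosome 3, 95739976 to 95760206, minus strand), read 15.5, 13.1 and 17.8 CPM with FTY720 and 9.39, 5.96 and 7.05 CPM with LPS added (-1.04 ± 0.25, adjusted p = 0.00197). The groups lay apart. Reads on its opposite strand numbered 10, 5 and 5 with FTY720 and 13, 13 and 9 with LPS added, 20.5% of reads on both strands, and with both strands counted together the change was -0.51 (adjusted p = 0.0621). Among protein-coding and long noncoding genes, the types searched, none on that strand was found within 5000 bases. Iars2, the isoleucine enzyme (chromosome 1, 185284726 to 185329396, minus strand), read 13.4, 14.1 and 14.0 CPM and then 7.13, 8.52 and 9.57 CPM (-0.73 ± 0.24, adjusted p = 0.0171). It lost its call in 4 of 15 alternatives. Its exons overlap those of Rab3gap2, on the opposite strand, by 2034 bases.

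Ears2, the glutamate enzyme, has a further role in mitochondria, where no separate glutamine enzyme exists: it charges the glutamine tRNA with glutamate, which the GatCAB amidotransferase then converts. It read 4.37, 5.04 and 3.08 CPM with FTY720 and 1.13, 2.55 and 1.51 CPM with LPS added (-1.22 ± 0.45, adjusted p = 0.0303; chromosome 7, 122037213 to 122067263, minus strand). These values rest on 13, 15 and 13 reads against 3, 6 and 3, so that Ears2 passed the filter on low counts through the FTY720 libraries alone, and its call was lost in 6 of the 14 alternatives that tested it. Gatb, a subunit of the amidotransferase, read 8.40, 9.07 and 10.9 CPM and then 3.75, 2.98 and 3.53 CPM (-1.47 ± 0.32, adjusted p = 0.000671), and was chosen for mention after its values were seen. Gatb had 98 reads with FTY720 and 24 with LPS added, and it too passed the filter through the FTY720 libraries alone.

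The 6 other tested mitochondrial enzymes were not called. Nars2, Rars2 and Wars2, the asparagine, arginine and tryptophan enzymes, had lower values in each library with LPS than in any without, but estimates of -0.40 ± 0.30, -0.25 ± 0.22 and -0.52 ± 0.29, with adjusted p-values of 0.288, 0.373 and 0.144. In all, 8 of the 11 tested mitochondrial enzymes had groups that did not overlap, each of them lower with LPS, against 33.2% of tested genes in their expression range that did not overlap and were lower and 13.2% that were higher. Ears2, which passed the low-count filter through the FTY720 libraries alone, is among these 8. Cars2, the cysteine enzyme, had an estimate of -0.35 ± 0.30. Mars2 and Yars2, the methionine and tyrosine enzymes, had positive estimates of 0.49 ± 0.27 and 0.30 ± 0.29, with overlapping groups and adjusted p-values of 0.141 and 0.415. By class, 3 of 4 tested class II enzymes fell (Fars2, Hars2 and Tars2) and 2 of 7 of class I (Ears2 and Iars2). In their expression range 27.3% of tested genes were called lower. Among cytosolic enzymes 9 of 20 had groups that did not overlap, 5 higher and 4 lower, against 25.8% and 26.8% of genes in their range. Over both compartments these were 17 of 31, against 54% of all tested genes (27.1% higher and 26.9% lower).

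The 4 untested mitochondrial enzymes were near the limit of detection. Aars2, the alanine enzyme, had 37 reads over the FTY720 libraries and 11 over the FTY720 + LPS libraries, a ratio of 0.432 after scaling for depth, with an exact 95% counting interval of 0.199 to 0.865. Vars2, the valine enzyme, had 26 and 8 reads (0.447, 0.175 to 1.02), and Pars2, the proline enzyme, had 39 and 16 (0.596, 0.311 to 1.09). Sars2, the serine enzyme, had 24 and 18 reads (1.09, 0.558 to 2.10). Only the Aars2 interval leaves out 1, and these intervals cover counting error and not the spread between RNA samples.

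Summed over genes, cytosolic synthetase transcripts came to 779.8, 793 and 785 CPM with FTY720 and to 871, 859.7 and 819 CPM with LPS added. Mitochondrial synthetase transcripts came to 138, 142 and 139 CPM and to 98.0, 103 and 86.2 CPM. On this TMM scale the sums moved in opposite directions with no overlap, by a ratio of 1.08 for the cytosolic and 0.687 for the mitochondrial enzymes. Per total gene reads, without TMM factors, the cytosolic sums overlapped (687 to 1126 with FTY720 and 672 to 833 with LPS added), and the mitochondrial sums did not (123 to 199 and 70.7 to 96.7). The mitochondrial share of synthetase CPM was 15.0%, 15.2% and 15.0% with FTY720 and 10.1%, 10.7% and 9.52% with LPS added. This share is a ratio within each library and does not depend on how libraries were scaled to each other. Over the same libraries the oligodendrocyte and neuron marker sums given above also fell, and their part in the fall of the mitochondrial sum was not tested.

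**Figure D3:**
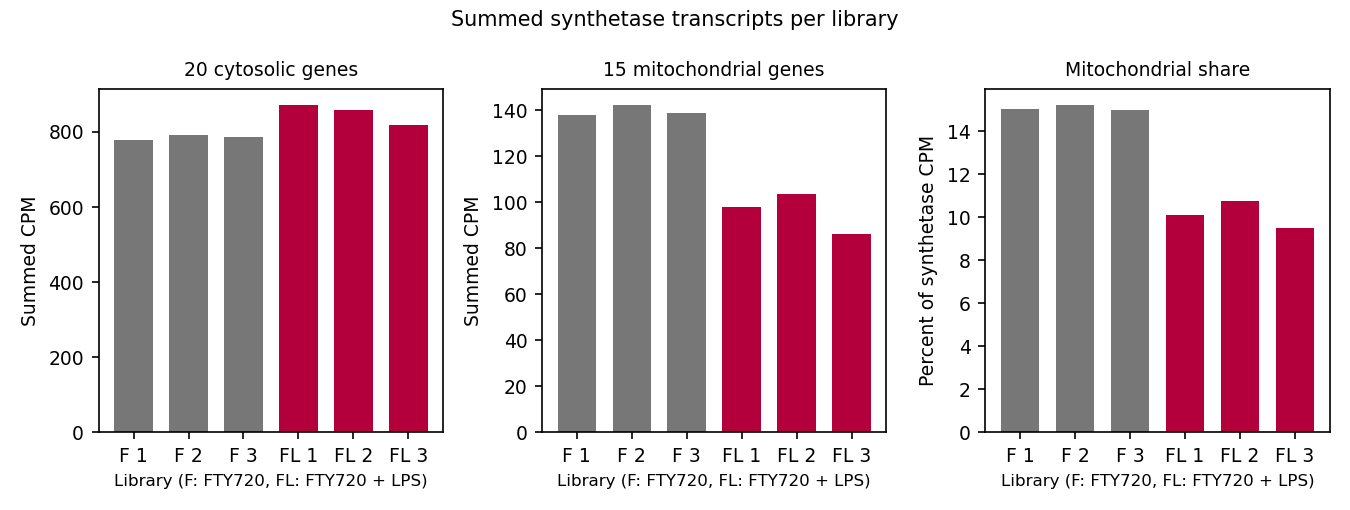
Summed CPM of the 20 cytosolic (left) and 15 mitochondrial (middle) synthetases and the mitochondrial percent of their total (right) in each of the 6 libraries, grey for FTY720 and red for FTY720 + LPS. The mitochondrial share lies between 15.0% and 15.2% in the FTY720 libraries and between 9.52% and 10.7% with LPS added.

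Amino acid by amino acid, 16 cytosolic and mitochondrial genes could be paired, with Fars2 and Eprs each used in 2 pairs. In 10 of the 12 pairs with both genes tested the log2 fold change of the cytosolic gene was above that of the mitochondrial gene, and the exceptions were methionine and tyrosine. The ratio of cytosolic to mitochondrial reads was higher in each library with LPS than in any without for 10 of the 16 pairs. The cytosolic gene is the more abundant one in most pairs, and fold change rose with expression across all genes, as given below. The same counts over other pairs of genes were not made, so these describe the pairs alone. For histidine the ratio went from 0.758, 0.852 and 0.731 to 1.86, 1.23 and 3.43, so that Hars reads outnumbered Hars2 reads only in the libraries with LPS. For asparagine the ratio of Nars to Nars2 went from 6.04, 7.21 and 6.07 to 13.2, 15.2 and 17.7. For methionine it moved the other way, from 2.43, 4.65 and 2.57 to 1.77, 1.44 and 1.43, the only pair lower with no overlap. These ratios describe the pairs, and the differences in fold change within pairs were not tested.

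Levels between genes were compared as mean CPM per kilobase of annotated exon. Qars had the highest level in both groups, 29.7 ± 2.7 (SD, n = 3) with FTY720 and 37.6 ± 1.4 with LPS added. Sars was next with FTY720 at 28.0 ± 2.6 per kilobase, within the spread of Qars, and was the fourth with LPS added at 21.7 ± 2.4. Nars moved from rank 6 (15.3 ± 0.93 per kilobase) to rank 2 (27.0 ± 0.45), above Lars at 24.4 ± 0.60. Farsb moved the other way, from rank 4 (18.4 ± 2.1 per kilobase) to rank 11 (12.9 ± 0.64). The most abundant mitochondrial enzyme with FTY720 was Rars2 at 7.59 ± 0.87 per kilobase, close to Hars at 7.67 ± 0.83, and Fars2 went from rank 19 (6.66 ± 0.07) to rank 24 (2.61 ± 0.72). Vars2 was the lowest in both groups, at 0.591 ± 0.148 and 0.263 ± 0.075 per kilobase. Exon lengths are those of all annotated transcripts together, and that of Aars includes 1326 bases shared with Exosc6.

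Fold changes in these libraries depended on expression level across all genes. The median log2 fold change of tested genes ran from -0.37 below a mean log2 CPM of 3 to 0.26 between 6 and 7 and to 0.69 above 9. Cytosolic synthetases lay at mean log2 CPM of 3.10 to 6.56 and mitochondrial ones at 1.75 to 3.84, so the compartments sit on different stretches of this trend. With the trend removed by cyclic loess, the medians were 0.05 for cytosolic and -0.22 for mitochondrial synthetases. Cytosolic calls were then 3 higher and 3 lower, and mitochondrial calls 1 higher (Mars2) and 3 lower. Scaling moved all genes together: the median of all tested genes was -0.17 with upper-quartile factors and -0.35 with total gene reads alone. Relative to those medians the cytosolic synthetases stayed above and the mitochondrial ones below, at 0.10 and -0.65 with upper-quartile factors and at -0.06 and -0.81 with total gene reads alone.

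**Figure D4:**
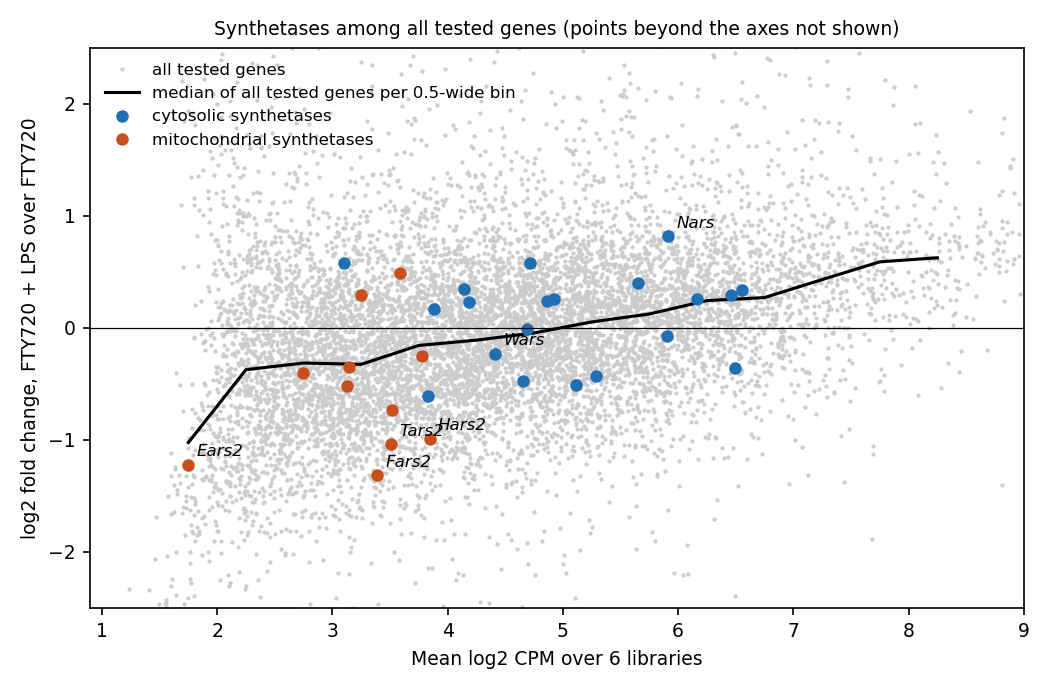
Log2 fold change (FTY720 + LPS over FTY720) against mean log2 CPM over the 6 libraries for all tested genes (grey), cytosolic synthetases (blue) and mitochondrial synthetases (orange), with the median of all tested genes in bins 0.5 wide as a line. Nars lies above the line, Wars a little below it, and Fars2, Tars2 and Hars2 below it at expression levels where the line itself is below 0.

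Genes of the amino acid response around the synthetases moved in part. Of 24 tested genes of the ATF4 amino acid response 10 rose and 3 fell, with a median of 0.26 (2 and 3 with total gene reads alone). The shares of all tested genes were 23.3% higher and 22.7% lower. Among the 10 that rose, Cth and Nupr1 had 0 and 2 FTY720 libraries past the level of the low-count filter. Both passed it through the FTY720 + LPS libraries, so the count is a description. Atf4 itself read 341, 312 and 372 CPM with FTY720 and 544, 560.4 and 559 CPM with LPS added. Its groups lay apart (0.70 ± 0.10, adjusted p = 8.9e-06), but with the expression trend removed the log2 fold change of Atf4 was -0.0142. Asns, asparagine synthetase, which makes the amino acid that Nars uses, read 48.7, 46.0 and 56.6 CPM and then 94.2, 88.6 and 85.7 CPM (0.82 ± 0.13, adjusted p = 2.4e-05). Asns and Nars thus had the same log2 fold change to 2 decimals, as did Bdp1, an RNA polymerase III factor named below. Their standard errors were far wider than this agreement, and a link between the changes was not tested. Ddit3, which encodes the stress factor CHOP, Trib3, a pseudokinase, and Chac1, which degrades glutathione, were not called, at 0.10 ± 0.12, -0.06 ± 0.20 and 0.49 ± 0.26. Ppp1r15a, the inducible subunit of the eIF2α phosphatase, rose by 2.23 ± 0.13 and Sesn2, a leucine sensor, by 0.92 ± 0.26, whereas Got1, cytosolic aspartate aminotransferase, fell by 1.33 ± 0.22 on the log2 scale.

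Among 17 tested amino acid transporters 8 rose and 5 fell, with a median of 0.34 (5 and 6 with total gene reads alone). The shares of all tested genes were 23.3% higher and 22.7% lower. Slc36a4, which fell, had 2 FTY720 + LPS libraries past the level of the low-count filter. Slc7a5, the large neutral amino acid exchanger LAT1, read 27.2, 25.5 and 17.5 CPM with FTY720 and 63.1, 70.3 and 80.1 CPM with LPS added (1.62 ± 0.17, adjusted p = 4.5e-08). Its partner Slc3a2 rose by 0.87 ± 0.10 and Slc7a11, the cystine importer, by 1.30 ± 0.11. Slc3a2 lay at a mean log2 CPM of 9.20. Above 9 the median log2 fold change of all tested genes was 0.69 and 88.2% were called higher. Slc1a5, a glutamine transporter, rose by 2.02 ± 0.20 and Slc7a8, LAT2, by 1.75 ± 0.12. Slc7a1, a cationic amino acid transporter, was not called (-0.10 ± 0.21). The estimates of the 5 transporters named as higher lay above that of every synthetase, and whether they differ from that of Nars was not tested.

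Of 8 tested eIF2α kinases and regulators 3 rose and 1 fell (3 and 4 with upper-quartile factors, 1 and 2 with total gene reads alone). Beside this and the next lists, the shares of all tested genes were 23.3% higher and 22.7% lower. Eif2ak2, the RNA-sensing kinase PKR, rose by 1.55 ± 0.25 and Ppp1r15b, the constitutive phosphatase subunit, by 0.72 ± 0.12, and Impact, an inhibitor of Gcn2 activation, fell by 1.13 ± 0.15. Of 7 cytosolic elongation factor genes 6 rose and 1 fell, but with total gene reads alone 0 rose and 1 fell, and with the expression trend removed 1 rose and 1 fell. The number lower was 0 without FTY720 replicate 1, FTY720 replicate 2, FTY720 + LPS replicate 2 or FTY720 + LPS replicate 3. Most of these genes are abundant. Of all tested genes with a mean log2 CPM of 7 to 8, 66.6% were called higher, and of those above 9, 88.2%. Eef1d and Eef2k lay lower, at 3.15 and 3.06, and Eef2k had 2 FTY720 + LPS libraries past the level of the low-count filter. Eef2, the translocase, had an estimate of 0.78 ± 0.10, which was -0.16 with the trend removed, and its kinase Eef2k fell by 0.79 ± 0.31. Of 21 genes of mTORC1 and its amino acid inputs 2 rose and 8 fell, and 1 rose without FTY720 replicate 1, FTY720 + LPS replicate 1 or FTY720 + LPS replicate 2 and 0 with total gene reads alone. Among the 8 that fell, Tfeb had 0 and Mlst8 and Nprl3 each had 2 FTY720 + LPS libraries past the level of the low-count filter. Tfeb passed it through the FTY720 libraries, where it was high, so the count is a description. Those that fell include Rragd, a Rag GTPase (-1.79 ± 0.17), Nprl3 of the GATOR1 complex (-1.09 ± 0.28) and Akt1s1, the mTORC1 subunit PRAS40 (-1.06 ± 0.23). Of 7 genes of MYC and its partners 1 rose and 1 fell, both MAX-binding repressors: Mxd1 by 1.24 ± 0.16 and Mnt by -1.18 ± 0.32.

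Genes that make and process the tRNA substrates were called in both directions. Of 20 RNA polymerase III genes 2 rose and 5 fell, beside the 23.3% higher and 22.7% lower of all tested genes. With total gene reads alone 0 rose and with DESeq2 1 rose and 3 fell. The number higher was 1 without FTY720 replicate 1 or FTY720 + LPS replicate 2, and the number lower was 2 without FTY720 replicate 1, FTY720 + LPS replicate 2 or FTY720 + LPS replicate 3 and 3 without FTY720 replicate 2 or FTY720 + LPS replicate 1. Named members were Bdp1, a TFIIIB subunit, at 0.82 ± 0.20, Polr3b at -0.81 ± 0.24 and Gtf3c2 at -0.61 ± 0.18 on the log2 scale. Of 20 tRNA export and processing genes 1 rose, the RNA kinase Clp1 (1.59 ± 0.18), and 3 fell, among them Elp3, the wobble uridine modifying acetyltransferase (-1.03 ± 0.25), and the dihydrouridine synthase Dus3l (-0.87 ± 0.25). The number lower was 5 with upper-quartile factors or the trend removed, and the number higher was 2 without FTY720 replicate 3 or FTY720 + LPS replicate 3. Of 14 partners of mitochondrial aminoacylation and translation 1 rose, Trnt1, which adds the CCA end to tRNAs (0.85 ± 0.14), and 2 fell, Gatb and the initiation factor Mtif2 (-0.88 ± 0.25). These numbers were 0 and 2 with total gene reads alone and 1 and 1 without FTY720 + LPS replicate 2.

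Relatives of the synthetases outside the set include the enzymes of selenocysteine tRNA and editing factors. Of 11 tested, the rRNA-like Lars2 row among them, 0 were called higher by edgeR, by DESeq2 or at an unadjusted p under 0.05, and 6 were called lower, against 22.7% of all tested genes and 28.0% of those below a mean log2 CPM of 3. Of these 6, Prorsd1, Pstk and Ptrh2 had 1, 1 and 0 FTY720 + LPS libraries past the level of the low-count filter. They passed it through the FTY720 libraries, where they were high, so the count is a description. In the alternatives 1 relative was called higher with both strands counted together and 1 without FTY720 replicate 2. Sephs2, which makes the selenium donor for the selenocysteine tRNA that Sars charges with serine, read 97.4, 105 and 90.7 CPM with FTY720 and 28.5, 19.2 and 26.7 CPM with LPS added (-1.97 ± 0.16, adjusted p = 3.9e-10). Its paralogue Sephs1 fell by 0.89 ± 0.21. The estimate of Sephs2 lay below that of every listed synthetase, and its groups lay well apart.

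**Figure D5:**
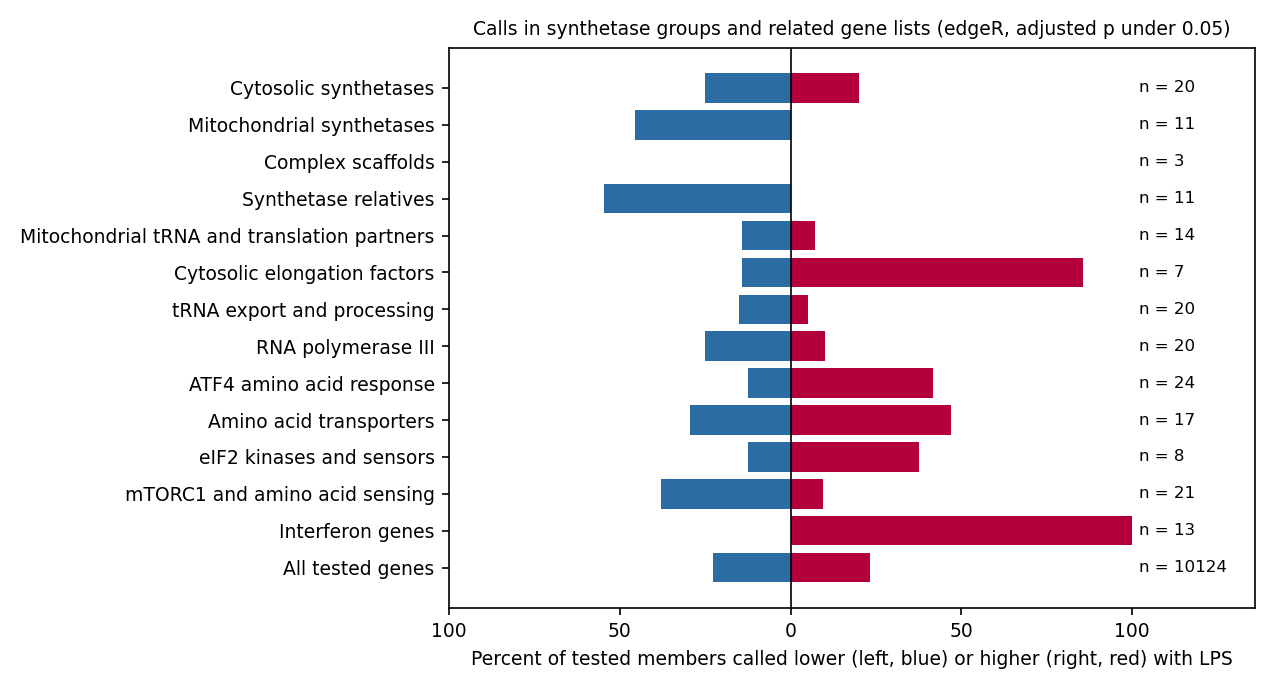
Percent of tested genes called lower (blue, left) and higher (red, right) with LPS in the synthetase groups and in related gene lists (edgeR, adjusted p under 0.05), with the number tested at the right. Cytosolic synthetases (4 of 20 higher, 5 lower) resemble all tested genes (23.3% and 22.7%), while mitochondrial synthetases (5 of 11) and the synthetases' relatives (6 of 11) were called lower only. Some of the genes called lower, Ears2 among them, passed the low-count filter through the FTY720 libraries alone.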

How the data were processed

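The authors deposited raw gene counts of 6 strand-specific, rRNA-depleted RNA-seq libraries, 3 per group. For the authors' own steps the submitters' processing notes list the build mm10, the aligner STAR 2.5.1, Trimmomatic 0.33, CASAVA 1.8.2 and DESeq2. The gene annotation is given nowhere in the sources used here. Per the file layout the counts hold uniquely mapped reads, and rows with no gene name entered neither library sizes nor tests (as shares of all reads: unmapped 24.4% to 27.0%, multimapping 7.69% to 8.15%, outside exons 42.2% to 44.5%, ambiguous 0.0748% to 0.114%). Sense counts were tested in R 4.3.3 with edgeR 4.0.16 (quasi-likelihood test, TMM factors, filterByExpr with a minimum count of 10), which tested 10124 of 24411 genes. Benjamini-Hochberg adjustment covered all tested genes, with a threshold of 0.05. A standard error is the absolute log2 fold change over the square root of F, and CPM values are TMM-scaled. The fit was tested on simulated data. Replicates differed by more than sampling noise in every pair (chi-square per degree of freedom 1.29 to 4.88). The alternatives, 15 in all, were other normalizations, DESeq2 1.42.0, limma 3.58.1 after trend removal, no filter, no rRNA-like rows, unstranded counts, a replicate block and leaving out each library. Positions came from GENCODE M21. All 35 synthetases are named, with the 3 scaffolds, 9 genes of the amino acid response and transport, and up to 3 called genes per other list with the largest change and a mean log2 CPM of at least 3. A gene that this rule takes is not reported here. The members and lists were chosen with earlier results of these data known.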

Additional observations from a re-analysis of the deposited data

Results flagged for a closer look

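Reads on the strand opposite to Tars2, which were left out of the sense counts tested above and entered only the alternative that counts both strands together, numbered 35 over the 3 FTY720 + LPS libraries (13, 13 and 9) and 20 over the 3 FTY720 libraries (10, 5 and 5). Scaled for depth they came to 4.88, 5.54 and 4.53 CPM with LPS added and to 3.36, 1.68 and 1.18 CPM with FTY720, so the groups did not overlap, whereas sense reads of Tars2 were fewer with LPS added. Of protein-coding and long noncoding genes, the types searched, those nearest to Tars2 lie on its own strand: Ecm1 at 407 bases and Rprd2 at 135 bases. Other types of gene were not searched. The source of these reads was not tested.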

How the results depend on the processing

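Of the 14 called synthetases, Fars2 and Hars2 kept their calls in all 15 alternatives, Nars, Farsb and Tars2 lost theirs in 1, and the other 9 in 2 or more; 0 changed direction while called. Among the 17 uncalled, 4 gained a call in some alternative (Aars, Lars, Mars2 and Tars). Cytosolic synthetases called higher numbered 4 in the analysis reported, 1 with upper-quartile factors, 0 with total gene reads alone, 2 with no filter on low counts, and 1 to 5 when 1 library was left out (1 without FTY720 + LPS replicate 2). Cytosolic synthetases called lower numbered 5, and 3 with the expression trend removed, 1 by DESeq2 (Farsb), and 1 to 4 when 1 library was left out: 1 without FTY720 + LPS replicate 2, 2 without FTY720 replicate 1 or FTY720 + LPS replicate 3, and 3 without FTY720 replicate 2 or FTY720 + LPS replicate 1. Mitochondrial synthetases called higher numbered 0, and 1 with the expression trend removed. Those called lower numbered 5, and 3 with the trend removed, 3 by DESeq2, and 3 to 5 when 1 library was left out (3 without FTY720 + LPS replicate 1). Over all tested genes 2362 were higher and 2297 lower; with upper-quartile factors 1885 and 2969, with total gene reads alone 766 and 2688, and by DESeq2 2036 and 1529. With the expression trend removed the log2 fold change of Atf4 was -0.0142 and the log2 fold change of Eef2 was -0.16. The cause of each change was not tested.

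Same-numbered libraries of the groups did not deviate together (correlations of -0.0221, -0.0260 and -0.0725), so the numbers were not taken as pairs. With a replicate block 4 cytosolic synthetases were higher and 4 lower (Dars lost its call), 0 mitochondrial ones were higher and 5 lower, and 2292 genes were higher and 2174 lower. Depth limits the mitochondrial enzymes most: the tested ones rested on 12 to 198 reads per group, and the cytosolic ones on 66 to 1047. Within groups the median coefficient of variation was 15.1% and 23.5% for mitochondrial and 11.8% and 12.7% for cytosolic enzymes, with FTY720 and with LPS added.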
